A study of Mus musculus with 30 samples.

Results

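Granzymes are serine proteases that cytotoxic lymphocytes store in secretory granules and release onto target cells. The 6 genes described here encode 3 granzymes (Gzma, Gzmb and Gzmk), the pore-forming protein perforin (Prf1), the granule inhibitor cystatin F (Cst7) and the lymphocyte protease cathepsin W (Ctsw). They were chosen by name, as every probe set whose only annotated gene symbol was one of these 6. Earlier results of these data were known when they were chosen, so counts of members against all probe sets are descriptive. Each gene had 1 probe set (Gzma 102995_s_at, Gzmb 102877_at, Gzmk 99398_at, Prf1 93931_at, Cst7 102638_at, Ctsw 92214_at), so they are 6 of the 8251 genes that the array named alone.

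Perforin lets granzymes enter a target cell, where granzyme B cuts proteins after aspartate and starts apoptosis, while granzymes A and K cut after basic residues. Cystatin F is carried to the granules and inhibits the cathepsins that remove the pro-peptides of granzymes; cathepsin W is a protease found mainly in CD8 T cells and natural killer (NK) cells. These genes are best known from those cytotoxic cells, but activated CD4 T cells and regulatory T cells (Treg) can also express granzymes.

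Values came from 30 Affymetrix MG-U74Av2 arrays of sorted CD4+ T cells, given here as log2 intensity. All mice were NOD mice carrying the BDC2.5 transgene, a T cell receptor that recognizes an islet antigen, and every sorted fraction is a mixed population defined by surface gates. Pancreas set 1 held infiltrating cells of mice given rat IgG: Treg cells gated as CD4+CD25+CD69- (3 arrays) and CD4+ effector T cells (Teff) with CD25 low or negative and CD69 positive or negative (5 arrays), with no age in the labels. Pancreas set 2 held cells of mice given an antibody to the costimulatory receptor ICOS, at 26 days of age. CD4+CD25+ cells gave its 3 Treg arrays and CD4+CD25- cells its 3 Teff arrays. It also held 2 IgG Treg arrays with the CD69- gate, 1 at 4 weeks and 1 at 26 days. The lymph node set held CD4+ cells of mice at 4 weeks with no treatment named, as 5 CD25+ and 3 CD25- arrays from mesenteric nodes, with 3 CD25+ and 3 CD25- arrays from peripheral ones. The labels of set 1 and the node set name 2 rounds of amplification. They do not say that replicates came from separate mice, so the spread behind each p-value may be technical.

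Array medians spanned under 0.1 on the log2 scale within each set, and the number of arrays limits the precision. The array of set 1 IgG Treg replicate 3 was deposited again as set 2 IgG Treg replicate 2 (r = 0.997 across probe sets, at most 0.988 with another array) and was counted 1 time in joined fits. CD4 T cell markers averaged between 7.51 and 9.06 per array over 7 measured genes, and CD8 markers between 3.96 and 5.09 over 2. The Treg markers Il2ra, Ctla4, Tnfrsf18 and Tnfrsf4 all rose in CD25+ or Treg cells of set 1 and of both node sites, and Foxp3 had no probe set. Il2ra encodes CD25, on which the cells were sorted. Mesenteric CD25+ replicate 2 had a CD25- source name against its title, and its Il2ra was 5.5, within the 5.34 to 6.23 of the CD25+ mesenteric arrays. The tissue field of every peripheral array says mesenteric, and here too the titles were followed.

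1 library went against its label. The library labelled anti-ICOS Treg replicate 3 had a mean of 6.12 over the 4 Treg markers, against 7.91 and 8.82 in the other anti-ICOS Treg arrays and 6.14 to 6.37 in anti-ICOS Teff arrays. The library labelled anti-ICOS Teff replicate 1 stood apart in the NK-associated genes Tyrobp (7.15, against 4.96 to 5.54 in the other 2) and Klrd1 (6.53, against 5.40 and 5.57). Its mean over the 9 measured NK markers was 4.41, against 4.0 and 3.85. Ncr1 was lowest in it (1.96, against 2.43 and 2.34), and Klra3 lay between the other 2. Tyrobp also read 6.90 in IgG Treg replicate 1 of set 2, and Klrd1 6.12 in the library labelled anti-ICOS Treg replicate 3. IgG Treg replicate 1 of set 2 had macrophage markers at 5.81 against 3.89 in replicate 2, and erythroid markers at 11.34 against 9.33. The main results of set 2 are therefore given with and without these libraries.

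The upstream sequences of Gzmb, Cst7 and Gzmk are shown because the first 2 moved together over the arrays while Gzmk differed between pancreas and nodes. RefSeq windows (GRCm38.p6) were found for 5 of the 6 members. Each line gives the 250 bases before the annotated start, 5′ to 3′, and capitals mark matches on either strand to TGTGGT (Runx), TGANTCA (AP-1), TTCNNNGAA (STAT) or AGGTGT (T-box).
Gzmb, chr14:56262335-56262584, minus strand: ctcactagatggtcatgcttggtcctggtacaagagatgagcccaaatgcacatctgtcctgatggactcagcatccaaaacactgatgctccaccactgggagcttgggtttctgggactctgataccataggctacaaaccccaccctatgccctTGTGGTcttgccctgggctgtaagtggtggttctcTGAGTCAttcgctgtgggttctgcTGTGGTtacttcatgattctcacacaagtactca
Cst7, chr2:150570165-150570414, plus strand: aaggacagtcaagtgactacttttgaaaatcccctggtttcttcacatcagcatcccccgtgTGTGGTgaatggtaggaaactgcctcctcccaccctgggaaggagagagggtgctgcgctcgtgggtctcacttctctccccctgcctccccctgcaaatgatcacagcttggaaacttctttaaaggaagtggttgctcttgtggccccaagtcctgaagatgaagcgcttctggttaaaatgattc
Gzmk, chr13:113180966-113181215, minus strand: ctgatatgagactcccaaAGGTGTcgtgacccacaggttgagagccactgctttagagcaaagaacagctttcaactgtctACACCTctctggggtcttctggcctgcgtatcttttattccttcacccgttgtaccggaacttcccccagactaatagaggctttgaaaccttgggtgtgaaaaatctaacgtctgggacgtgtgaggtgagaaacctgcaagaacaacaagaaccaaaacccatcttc
Counted from the gene start, the Gzmb window held TGTGGT at -93 and -34 and the AP-1 motif at -58. The Cst7 window held TGTGGT at -188, and the Gzmk window held the T-box motif at -232 and -169, in opposite orientations. None of these 3 windows held the STAT motif. The Gzma window, not printed, held a TGTGGT match at -50 and a T-box match at -80. Over 32851 windows of the same length, 14% held TGTGGT, 6.75% the AP-1 motif, 7.02% the STAT motif and 11.8% the T-box motif. A match describes letters in the window and shows no binding.

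In the infiltrated pancreas of IgG-treated mice, the comparison that the series title names, all 3 granzymes, Cst7 and Ctsw were higher in Treg than in Teff cells, and Prf1 did not pass the test. Gzmb differed most, by 12.8-fold, and Gzmk, Cst7 and Ctsw differed by about 2.2-fold. In all, 5 of 6 members were called higher, against 3.93% of all probe sets called higher and 6.69% called in either direction. The members' median log2 difference was 1.14, against 0.03 over all probe sets. In the same 5 genes the 2 groups did not overlap, which held in this direction for 8.53% of all probe sets.

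Gzmb read 9.54, 8.72 and 8.61 in the Treg arrays and 5.72, 5.76, 4.84, 5.15 and 4.94 in the Teff arrays. Every Treg array lay well above every Teff array. The log2 difference was 3.67 (SE 0.27, 95% interval 3.08 to 4.27, limma adjusted p = 4.4e-05).

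Gzmk read 5.34, 5.07 and 5.15 in Treg and 4.07, 4.18, 3.96, 4.08 and 3.89 in Teff arrays. The groups were tight and separate, with a difference of 1.15 (SE 0.10, limma adjusted p = 0.000145). Gzma read 5.14, 4.91 and 5.02 against 4.65, 4.60, 4.37, 4.53 and 4.56. These groups did not overlap either, but the difference was smaller, at 0.48 (SE 0.09, limma adjusted p = 0.0141).

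Prf1 read 5.39, 5.42 and 5.23 in Treg and 5.14, 5.12, 5.19, 5.14 and 5.39 in Teff arrays. The groups overlapped, since Teff replicate 5 reached the level of Treg replicate 1. The difference was 0.15 (SE 0.09, 95% interval -0.06 to 0.36, limma adjusted p = 0.433).

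Cst7 read 6.58, 6.04 and 5.84 in Treg and 5.23, 5.01, 4.82, 4.94 and 5.0 in Teff arrays, a difference of 1.15 (SE 0.16, limma adjusted p = 0.00236). Ctsw read 6.70, 7.02 and 7.27 against 5.95, 5.98, 5.58, 6.02 and 5.76, a difference of 1.14 (SE 0.14, limma adjusted p = 0.00147). Both genes separated the groups, Cst7 with its highest value in Treg replicate 1 and Ctsw with its lowest there.

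All 5 calls held whichever of the 8 arrays was left out. The array numbers in the labels fall into runs, used as candidate batches. Within the 3 runs of this set Gzmb differed by 3.80, 3.88 and 3.56. The log2 3'/5' ratio of the actin control probe sets, a rough measure of RNA quality, averaged 3.75 for the Treg arrays against 2.65 for Teff. It ranged from 3.02 to 4.53 in Treg and from 2.38 to 3.11 in Teff arrays, so it nearly coincided with the sort. With that ratio as a covariate Gzmb (3.75, limma adjusted p = 0.00791), Gzmk (1.23, 0.0128) and Ctsw (1.35, 0.0346) stayed past the threshold, while Gzma (0.61, 0.144) and Cst7 (1.10, 0.137) did not. None of 2 CD8, 9 NK or 9 mast cell markers measured passed the test in this comparison, and per-array means of the NK list were 3.92 to 4.32 in Treg and 4.10 to 4.38 in Teff arrays. Of 4 B cell markers measured, Cd79b passed, higher by 0.69 in Treg cells (5.12 to 5.84, against 4.48 to 4.94 in Teff arrays). Its part in the member differences was not tested. In such bulk samples a larger share of expressing cells and more RNA per cell cannot be told apart.

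**Figure D1:**
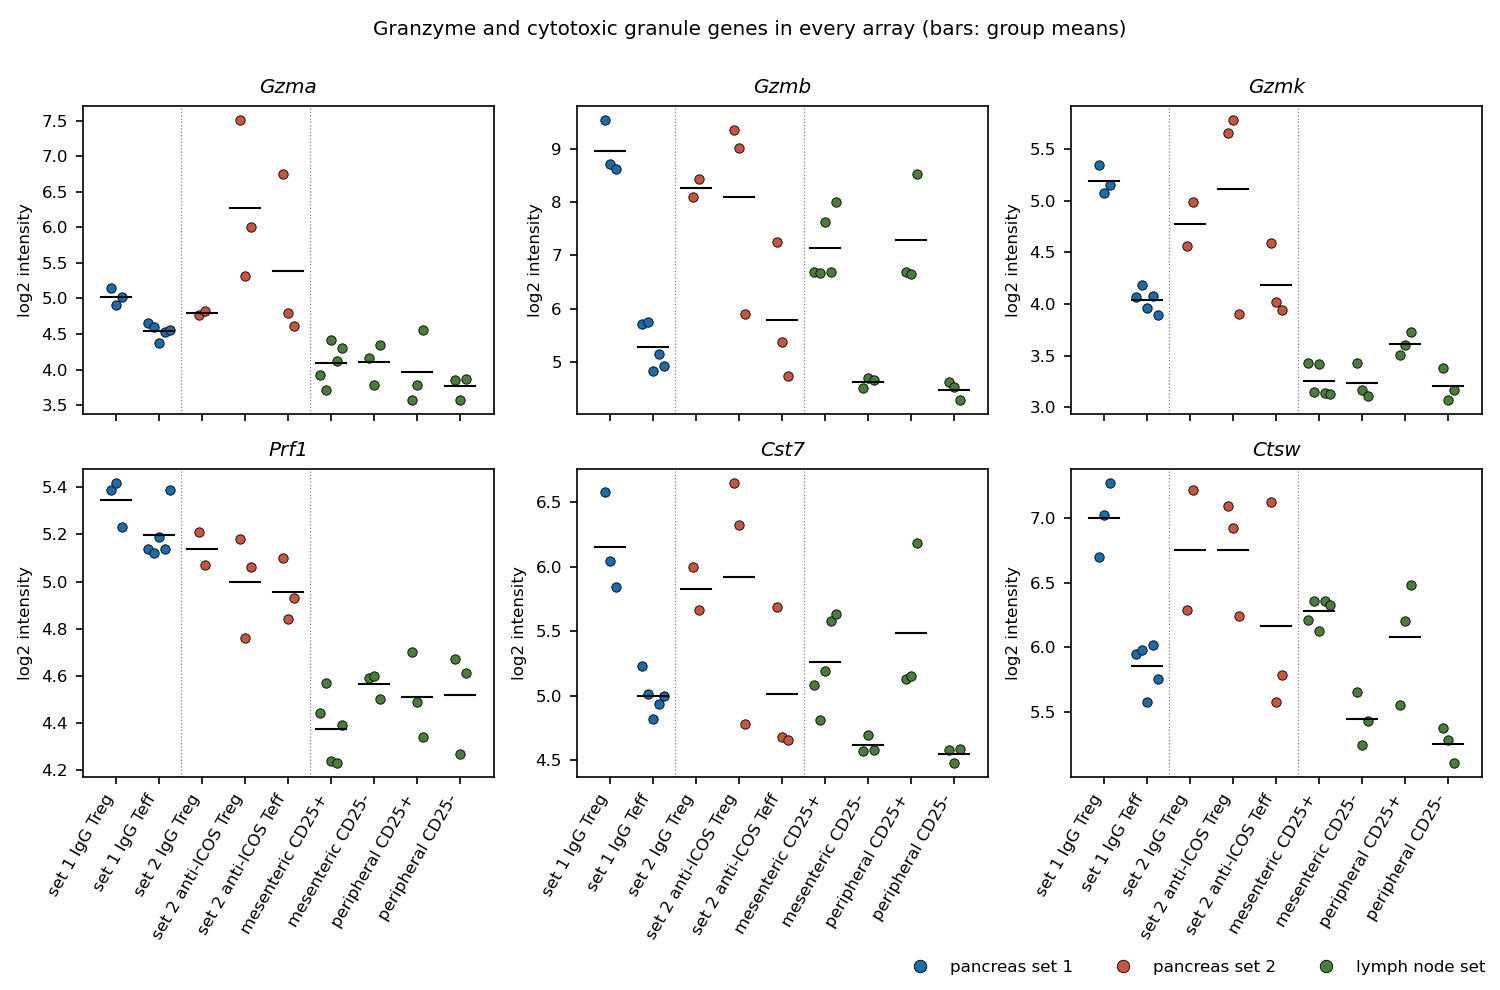
Log2 intensity (y axes) of each gene in every array, by group (x axis); points are arrays, coloured by deposit set, and bars are group means. Gzmb spans 4.29 to 9.54 and Prf1 4.23 to 5.42 over the 30 arrays; levels are comparable within a set, not across the dotted lines.

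In mesenteric nodes Gzmb and Ctsw were higher in CD25+ than in CD25- cells, while Gzma, Gzmk, Prf1 and Cst7 did not pass the test. Gzmb was higher by 5.69-fold and Ctsw by 1.78-fold. Called higher were 2 of 6 members, against 4.66% of all probe sets called higher and 12.2% called in either direction. The groups did not overlap in 3 of the 6 genes (Gzmb, Cst7, Ctsw), as they did not, in this direction, for 12.1% of all probe sets. The members' median difference was 0.33, against 0.04 over all probe sets.

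Gzmb read 6.70, 6.67, 7.62, 6.70 and 8.01 in mesenteric CD25+ arrays and 4.51, 4.71 and 4.66 in CD25- arrays. All 5 CD25+ arrays were higher, with 2 of them well above the other 3, and the difference was 2.51 (SE 0.40, limma adjusted p = 0.00129). Gzmk read 3.43, 3.15, 3.42, 3.14 and 3.13 against 3.43, 3.17 and 3.11. The groups covered the same range, between the 15.5 and 23.1 percentile of the arrays' probe sets, and the difference was 0.02 (95% interval -0.22 to 0.26). Gzma read 3.93, 3.72, 4.42, 4.12 and 4.31 against 4.17, 3.79 and 4.35, again overlapping (0.00, 95% interval -0.46 to 0.45).

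Prf1 was, if anything, lower in the CD25+ arrays, at 4.44, 4.57, 4.24, 4.23 and 4.39 against 4.59, 4.60 and 4.5. The groups overlapped and the difference of -0.19 (SE 0.11, limma adjusted p = 0.341) did not pass. Ctsw read 6.21, 6.36, 6.13, 6.36 and 6.33 against 5.66, 5.25 and 5.43, a clear separation with a difference of 0.83 (SE 0.17, limma adjusted p = 0.00519). Cst7 read 5.08, 4.81, 5.19, 5.58 and 5.63 against 4.57, 4.70 and 4.58. Its groups were separate by a small margin, and the difference of 0.64 (SE 0.23, limma adjusted p = 0.0831) missed the threshold.

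Peripheral nodes gave Gzmb, Ctsw and Cst7 higher in CD25+ cells. Gzmb was higher by 6.95-fold, Cst7 by 1.91-fold and Ctsw by 1.77-fold. That made 3 of 6 members called higher, against 1.8% of all probe sets called higher and 7.69% called in either direction. The groups did not overlap in 4 of 6 genes, against 9.63% of all probe sets in this direction, and the median difference was 0.62, against 0.05.

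Gzmb read 6.69, 6.65 and 8.52 in peripheral CD25+ arrays and 4.63, 4.54 and 4.29 in CD25- arrays. The groups were far apart, CD25+ replicate 3 was the highest node array of all, and the difference was 2.80 (SE 0.44, limma adjusted p = 0.00172). Cst7 showed the same layout, at 5.13, 5.15 and 6.18 against 4.58, 4.48 and 4.59, with a difference of 0.93 (SE 0.25, limma adjusted p = 0.0371). Ctsw read 5.56, 6.20 and 6.48 against 5.38, 5.29 and 5.11, with CD25+ replicate 1 closest to the CD25- cells and a difference of 0.82 (SE 0.18, limma adjusted p = 0.0143).

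Gzmk read 3.51, 3.60 and 3.73 against 3.38, 3.07 and 3.17. These groups did not overlap, but the difference of 0.41 (SE 0.12, limma adjusted p = 0.0634) missed the threshold. Gzma (3.57, 3.78 and 4.55 against 3.85, 3.57 and 3.87) and Prf1 (4.70, 4.49 and 4.34 against 4.67, 4.27 and 4.61) overlapped, with differences of 0.21 and -0.01. Of the 14 fits that left out 1 node array, mesenteric ones included, Gzmb passed in all 14. Ctsw passed in 11, Cst7 in 8 (limma adjusted p up to 0.121) and Gzmk in 2. Without CD25+ replicate 3 or without CD25- replicate 3, Gzmb was the 1 member left past the threshold. Without CD25+ replicate 3, Gzmb differed by 2.18, Cst7 by 0.59 (limma adjusted p = 0.0953) and Ctsw by 0.62 (0.0515).

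Other measures differed between the node fractions too. The actin ratio was 3.02 on average in peripheral CD25+ and 2.54 in CD25- arrays. With it as a covariate no member passed in peripheral nodes (Gzmb 2.43, limma adjusted p = 0.0677), while Gzmb (2.34, 0.0074) and Ctsw (0.92, 0.00916) passed in mesenteric nodes. The 4 CD25+ node arrays of the first of 2 runs of array numbers held Gzmb at 6.65 to 6.70, and the 4 of the second run at 6.70 to 8.52. Within the runs the difference was 2.07 and 2.78 in mesenteric nodes and 2.21 and 3.98 in peripheral nodes. Of 9 NK markers, Klrd1 fell by 1.08 and 0.75 in CD25+ cells of mesenteric and peripheral nodes, and Tyrobp rose by 0.60 in mesenteric nodes. Of 9 mast cell markers Kit alone passed, higher by 1.32 in mesenteric nodes, and no CD8 marker passed. Of 4 B cell markers Cd79b passed in mesenteric nodes, higher by 1.07 (5.61 to 6.85 in CD25+, against 4.81 to 4.98 in CD25- arrays), and none passed in peripheral nodes. The part of these in the member differences was not tested.

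Between the node sites no member passed the test in either fraction, where 0.0725% (CD25+) and 0.451% (CD25-) of all probe sets were called in either direction. Gzmb in CD25+ cells differed by -0.15 (mesenteric minus peripheral, 95% interval -1.0 to 0.70). Gzmk was lower in mesenteric than in peripheral CD25+ arrays without overlap, as were 1.05% of all probe sets, but the difference of -0.36 (SE 0.11, limma adjusted p = 0.898) did not pass. The interaction of site and sort called no member and 0.00805% of all probe sets, and for Gzmk it was -0.39 (SE 0.17, limma adjusted p = 1).

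**Figure D2:**
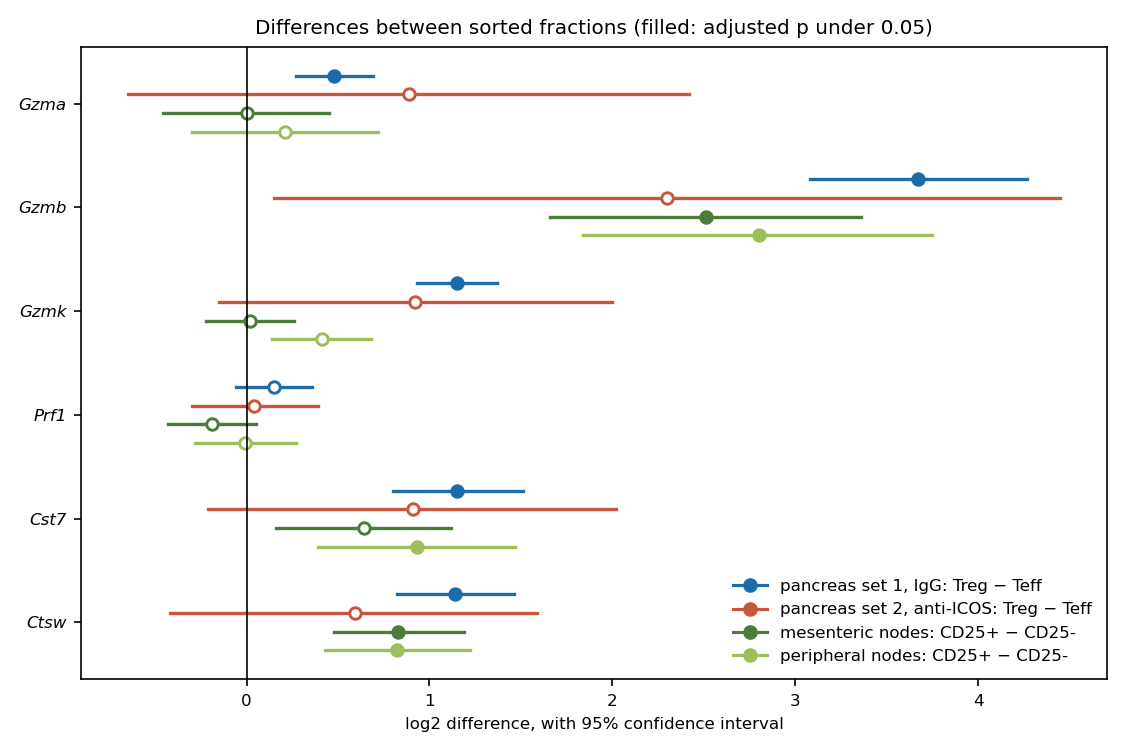
Log2 difference between sorted fractions (x axis) for each gene, as points with 95% confidence intervals; filled points had a limma adjusted p under 0.05. Gzmb lies furthest to the right in each comparison, from 2.30 to 3.67, and the Prf1 intervals all include 0. Gzmk separates the set 1 pancreatic fractions (1.15) and not the mesenteric ones (0.02), and in peripheral nodes (0.41) it missed the threshold.

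Gzmk was the 1 member whose Treg difference itself differed between pancreas and nodes. This test set the Treg minus Teff difference of set 1 against the mean CD25+ minus CD25- difference of the 2 node sites, from the same arrays as above and with set 1 and node arrays normalized together. It gave 0.90 for Gzmk (SE 0.13, 95% interval 0.62 to 1.18, limma adjusted p = 0.00186). Gzmk was dim in the node arrays and fell below the filter on dim probe sets there, so its node difference rests on dim values. Called higher was 1 of 6 members, against 1.22% of all probe sets called higher and 2.08% called in either direction. The Gzmk call held in all 22 fits that left out 1 array (0.82 to 0.97) and with the actin ratio as a covariate (0.96, limma adjusted p = 0.00896).

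The other members' differences were all positive but did not pass. Gzmb gave 1.11 (SE 0.46, 95% interval 0.15 to 2.07, limma adjusted p = 0.27), Prf1 0.27 (0.319), Cst7 0.40 (0.529), Ctsw 0.35 (0.424) and Gzma 0.39 (0.5). The pancreatic Treg gate excluded CD69+ cells and the node gate did not name CD69. Set 1 mice were given rat IgG and had no age in the labels, while no treatment was named for the node mice. Tissue, treatment, any age difference, gate, deposit set and processing cannot be told apart in this test.

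Under antibody to ICOS, the Treg arrays again read higher than the Teff arrays on average for all 6 members, but none passed the test, and 0% of all probe sets were called (209 at an unadjusted p under 0.05). The members' median difference was 0.90, against 0.01 over all probe sets. Gzmb read 9.35, 9.02 and 5.91 in Treg and 7.25, 5.38 and 4.75 in Teff arrays. The groups overlapped because the library labelled Treg replicate 3 read below Teff replicate 1, and the difference was 2.30 (SE 0.94, 95% interval 0.15 to 4.45, limma adjusted p = 1).

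Cst7 (6.65, 6.32 and 4.78 against 5.69, 4.68 and 4.66) and Gzmk (5.65, 5.78 and 3.90 against 4.59, 4.02 and 3.94) had Treg replicates 1 and 2 highest and Teff replicate 1 next, as Gzmb did. In both, the library labelled Treg replicate 3 sat with Teff replicates 2 and 3, and for Gzmk it was the lowest of the 6. Ctsw read 7.09, 6.92 and 6.24 against 7.12, 5.58 and 5.79, so that Teff replicate 1 was the highest of the 6. Their differences were 0.91, 0.92 and 0.59. Prf1 stayed between 4.76 and 5.18 in all 6 arrays, with no order by sort (0.04, 95% interval -0.30 to 0.39).

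No member passed in any of the 8 fits that left out 1 array of set 2. Without the library labelled Treg replicate 3 alone, Gzmb differed by 3.39 (limma adjusted p = 0.184), Gzmk by 1.53 (0.113) and Cst7 by 1.47 (0.291). Without Teff replicate 1 alone, Gzmb differed by 3.02 (limma adjusted p = 0.999). With both left out, Gzmb differed by 4.11 (SE 0.27, limma adjusted p = 0.00564) and Cst7 by 1.81 (SE 0.21, adjusted p = 0.0495). That made 2 members called among 21 probe sets, while Gzmk (1.73, limma adjusted p = 0.0515) and Ctsw (1.32, 0.335) did not pass. This fit was chosen after the values were seen, it leaves 2 arrays a group, and the arrays left out were ones in which these genes were low or high. Within the 2 runs of array numbers, each holding 1 Treg array, Gzmb differed by 3.03 and 4.26, and the library labelled Treg replicate 3 stood in neither.

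Gzma did not follow the other members in these arrays. It read 7.51, 5.31 and 6.0 in anti-ICOS Treg, 6.75, 4.79 and 4.62 in anti-ICOS Teff and 4.77 and 4.82 in IgG Treg arrays of set 2. The library labelled Treg replicate 3, low in Gzmb, Gzmk and Cst7, was above both IgG arrays in Gzma, and the highest 2 arrays were replicate 1 of each sort. The anti-ICOS minus IgG difference in Treg cells was 1.48 (SE 0.75, 95% interval -0.24 to 3.20, limma adjusted p = 0.893). The groups did not overlap, as they did not in this direction for 4.85% of all probe sets. No member passed this test (0% of all probe sets were called, 425 at an unadjusted p under 0.05).

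Without anti-ICOS Treg replicate 1 the Gzma difference was 0.86, and without the library labelled replicate 3 together with IgG replicate 1 it was 1.59. Gzmb differed by -0.17 (95% interval -2.58 to 2.23), Gzmk by 0.33, Cst7 by 0.09, Ctsw by 0.00 and Prf1 by -0.14 between the same groups. Without the library labelled replicate 3 and IgG replicate 1 these differences were 0.74, 0.72, 0.83, -0.21 and -0.10. Over the 8 fits that left out 1 array, Gzmb ranged from -0.80 to 0.92, Cst7 from -0.28 to 0.65 and Ctsw from -0.46 to 0.46, so that their direction turned with the arrays used. No member passed in any of these fits. The intervals are wide, and a p above the threshold does not show that these genes were unaffected. This comparison shares its anti-ICOS Treg arrays with the one between sorts, and the IgG gate excluded CD69+ cells.

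**Figure D3:**
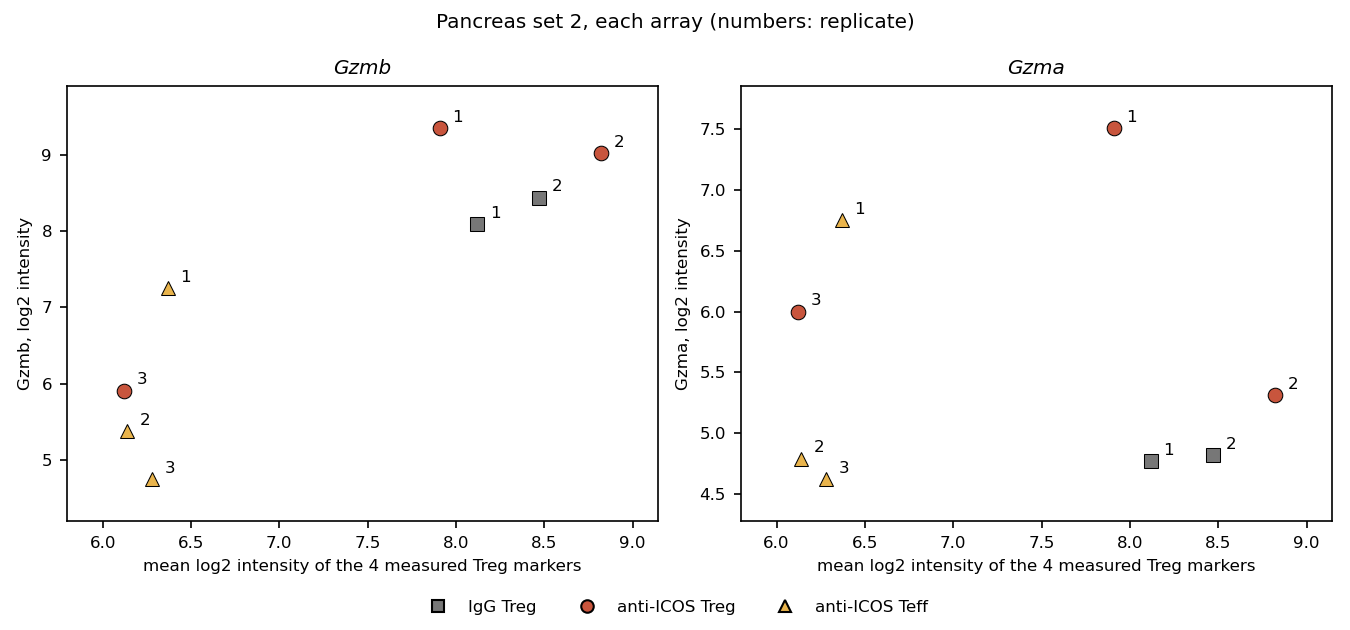
Gzmb (left) and Gzma (right) in each array of pancreas set 2 (y axes, log2 intensity) against the array's mean over the 4 measured Treg markers (x axes, log2 intensity); numbers are replicates. For Gzmb the library labelled anti-ICOS Treg replicate 3 (5.91) lies beside the Teff arrays; for Gzma it reads 6.0, above the IgG Treg arrays at 4.77 and 4.82.

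For Teff cells the treatment coincides with the deposit set, so an anti-ICOS difference and a set difference cannot be told apart. After joint normalization Gzma was 5.53 on average in anti-ICOS and 4.40 in IgG Teff arrays, a difference of 1.12 (SE 0.45, limma adjusted p = 0.999). Without anti-ICOS Teff replicate 1 it was 0.46. Gzma and Gzmk (0.51) did not overlap between the groups, as 3.65% of all probe sets did not in this direction. No member passed, and 0% of all probe sets were called (512 at an unadjusted p under 0.05). The interaction of treatment and sort called no member either (0% of all probe sets, 327 at an unadjusted p under 0.05), with Gzmb at -1.46 (SE 0.96, 95% interval -3.51 to 0.59).

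Over the 29 distinct arrays, each gene centred on its deposit set, Gzmb and Cst7 moved most closely together (r = 0.94). Gzmb and Ctsw had r = 0.87, Gzmk and Cst7 0.82, Cst7 and Ctsw 0.80, Gzmb and Gzmk 0.79, and Gzmk and Ctsw 0.69. Gzma stood further off, with r of 0.44 to 0.54 with those 4 genes. Prf1 had r of -0.02 to 0.16 with the others, on the narrowest span of the 6, 1.19. It stayed at the 39.8 to 56.3 percentile of the arrays' probe sets, and whether its 1 probe set follows perforin RNA was not tested. These correlations describe arrays that share sort, tissue and batch.

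The genes most like each member over the same arrays, among 8245 others, were named by rank alone. For Gzmb they were S100a6, Anxa2 and Lgals1 (r = 0.96 each), and for Cst7 Lgals1 (0.95), Anxa2 (0.94) and AW112010 (0.94). For Gzmk they were Prc1 (0.89), which acts in cell division, the exonuclease gene Exo1 (0.88) and the transcription factor gene Prdm1 (0.88). Ctsw was most like Cish (0.93), Anxa2 (0.89) and Pdcd1 (0.88), and Prf1 like Jph3 (0.74), Miip (0.73) and Mocos (0.73).

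Gzma was most like Lilr4b (0.74), the cytokine gene Ifng (0.72) and Klrk1 (0.71), which encodes the receptor NKG2D. Ifng, encoding interferon gamma, read 10.11, 8.13 and 7.33 in anti-ICOS Treg, 7.13, 6.41 and 6.26 in anti-ICOS Teff and 5.37 and 5.59 in IgG Treg arrays of set 2. Its highest value in set 2, as for Gzma, was in anti-ICOS Treg replicate 1. The IgG Treg arrays of set 1 read 7.17, 5.86 and 5.54. The last of these is the array deposited again as IgG Treg replicate 2 of set 2 (5.59). Levels are not comparable across sets, and no comparison of anti-ICOS with IgG cells called Ifng.

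The rest of the granule pathway followed the members only in part. Beside the counts of every list below, 6.69% of all probe sets were called in set 1, in either direction. The share was 12.2% in mesenteric and 7.69% in peripheral nodes. No other measured granzyme passed the test in set 1 (0 of 5, median difference 0.07) or mesenteric nodes (0 of 5, 0.10). In peripheral nodes Gzmc rose by 0.47 (limma adjusted p = 0.00901), but its other probe set gave 0.15 (adjusted p = 0.412). Gzmc is closely related to several neighbouring granzymes, and its probe sets disagreed in set 1 too (0.00, and 0.36 with adjusted p = 0.0224).

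Of 16 measured genes of granule contents, maturation and sorting, 2 rose in set 1 and 14 did not pass (median 0.01). These were serglycin (Srgn), the proteoglycan that packs granzymes, by 0.67, and the cathepsin inhibitor cystatin C (Cst3) by 1.35. Cst3 also rose in mesenteric (1.14) and peripheral nodes (1.34), where it was the 1 gene of the list to pass (median 0.05). In mesenteric nodes cathepsin L (Ctsl, 0.66) and the lysosomal membrane protein Lamp1 (0.78) rose too, and Lamp2 fell by 0.96 on 1 probe set and differed by -0.06 on the other (median of the list 0.11). In set 1 the other Lamp2 probe set gave 0.51 (limma adjusted p = 0.0121).

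Of 11 measured genes of granule exocytosis, the membrane fusion protein gene Vamp8 was higher in all 3 comparisons, by 0.99 in set 1, 1.05 in mesenteric and 1.00 in peripheral nodes. Its 2 probe sets gave values of 0.84 to 1.10. Stx7, a syntaxin of endosomes, fell by 0.69 and 0.97 at the 2 node sites. On the probe set used for each gene, the other list members did not pass (medians 0.15, 0.24 and 0.08). Some second probe sets passed in the nodes. That of Rab11a gave -0.96 in mesenteric (limma adjusted p = 0.00918) and -0.87 in peripheral nodes (0.0388). Vamp7 gave -0.52 in mesenteric (0.0172) and Vamp2 0.33 in peripheral nodes (0.0449). The probe sets used gave 0.24 and 0.03 for Rab11a, -0.03 for Vamp7 and 0.10 for Vamp2 there. Of 3 measured granzyme inhibitors, Serpinb6a rose by 1.21 in set 1 (SE 0.10, limma adjusted p = 9.17e-05), and none passed in the nodes.

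Death ligands and receptors serve the other route of T cell killing. In mesenteric nodes, where 12.2% of all probe sets were called, 3 of 7 measured genes rose (Lta by 1.92, Ltb by 1.26, Tnfsf10 by 0.28) and Fasl, the ligand of the death receptor Fas, fell by 0.42, with a median of 0.28. In set 1 (6.69% of all probe sets called) Lta rose by 1.00 and 6 did not pass (median 0.26). None passed in peripheral nodes (7.69% called, median 0.12), and this list was not compared between sites by a test. The second Lta probe set disagreed, at -0.38 in set 1 and -0.09 in mesenteric nodes.

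Among 12 measured regulators of the cytotoxic programme, those that passed differed in direction. In set 1 Prdm1, which encodes the repressor Blimp-1, rose by 1.85 (SE 0.12, limma adjusted p = 2.15e-05), with Bhlhe40 (0.65) and the interleukin 12 receptor chain Il12rb1 (0.69). Eomes, a T-box factor known for driving granzyme and perforin genes in CD8 T cells, fell by 1.18, and its second probe set by 2.30. It fell in peripheral CD25+ cells as well (1.25 and 2.42), and in mesenteric nodes it differed by 0.01. Eomes also passed between the node sites in CD25- cells, where 0.451% of all probe sets were called. Its mesenteric minus peripheral difference there was -1.91 to -1.48 over the 14 fits that left out 1 array, and it passed in all 14. The list's medians were 0.06 in set 1, 0.20 in mesenteric and -0.03 in peripheral nodes.

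Id2, an inhibitor of basic helix-loop-helix factors, rose by 1.90 and 1.22 in CD25+ cells of mesenteric and peripheral nodes. Stat4, which transmits interleukin 12 signals, fell by 0.61 and 1.17 there. Bhlhe40 (1.12) and the interleukin 2 receptor chain Il2rb (0.31) rose in mesenteric nodes. Stat5a did not pass there on the probe set used (0.50, limma adjusted p = 0.066), while its second probe set did (0.46, 0.0187). Between pancreas and nodes the Treg difference of Prdm1 was larger in the pancreas by 1.43 (limma adjusted p = 0.000653) and that of Id2 smaller, at -1.47 (adjusted p = 0.0262). Several of these list calls were lost when 1 array was left out. In set 1 Il12rb1 passed in 4, Bhlhe40 in 5 and Srgn in 6 of 8 such fits. In mesenteric nodes Lamp1 and Il2rb passed in 4, Tnfsf10 in 6, Stat4 in 8, Ltb, Cst3 and Stx7 in 9, Ctsl in 10, and Lamp2 and Fasl in 12 of 14. In peripheral nodes Cst3 passed in 5, Id2 in 10, Stx7 in 11 and Vamp8 in 12 of 14. Such counts include fits without an array of a group not compared, which changed the spread and not the difference. The Id2 call between pancreas and nodes passed in 17 of 22. Prdm1, Serpinb6a, Vamp8, Cst3, Lta and Eomes in set 1 passed in all 8. No gene of these 6 lists passed in a comparison of anti-ICOS with IgG cells or between sorts under anti-ICOS.

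**Figure D4:**
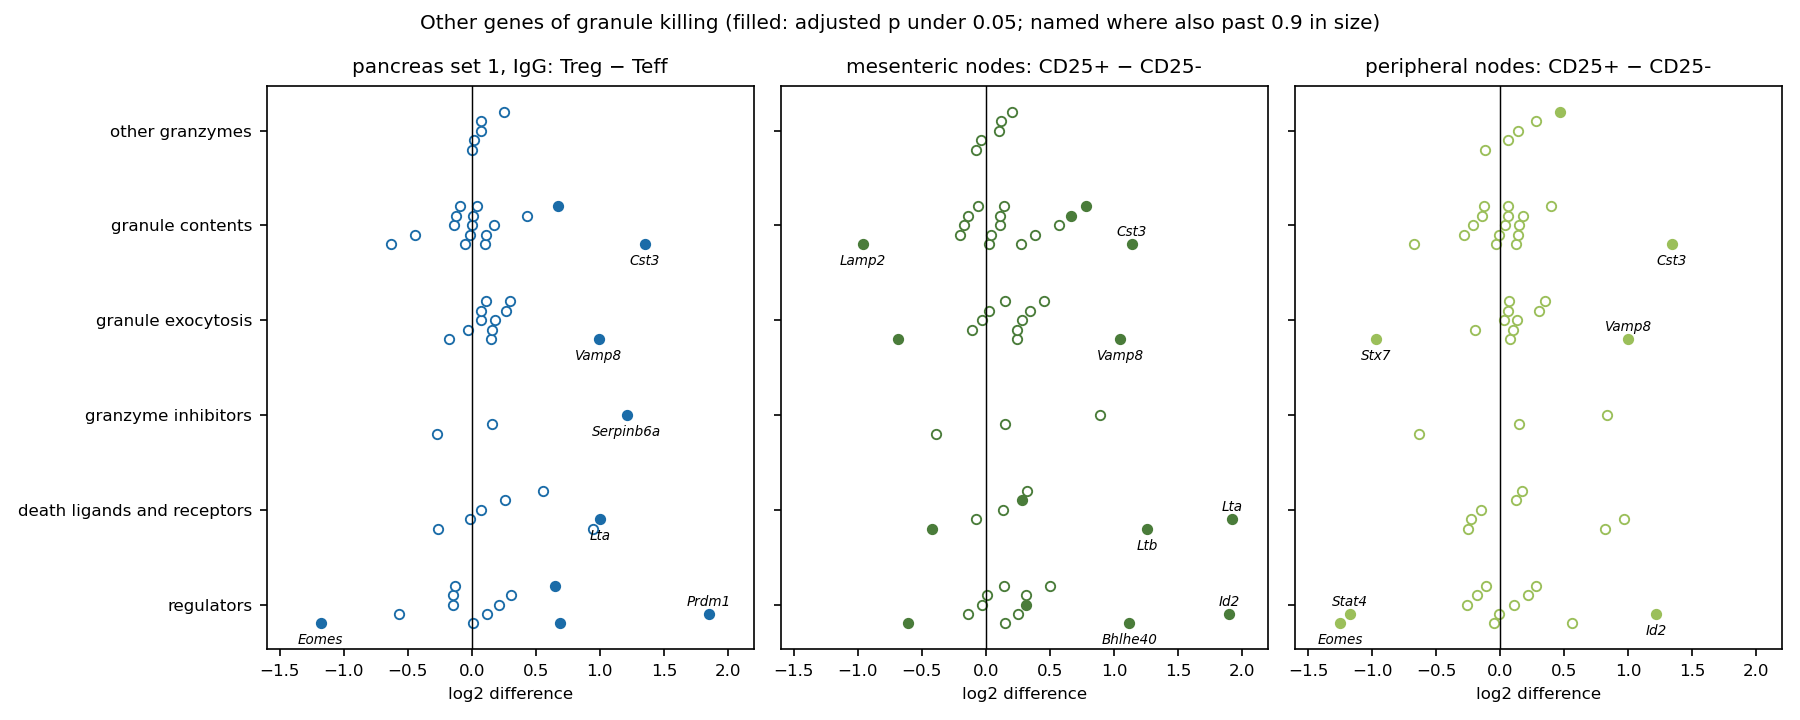
Log2 difference (x axes) of each measured gene of the 6 pathway lists (rows) in set 1 and both node sites; filled points had a limma adjusted p under 0.05 and are named where also past 0.9 in size. Vamp8 and Cst3 lie to the right in all 3 comparisons, and most open points lie near 0.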

How the data were processed

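The authors deposited 1 linear intensity for each of 12488 probe sets and 30 arrays. Per the submitters' processing notes, RMA (no version) made the intensities of pancreas set 2 and the lymph node set; how those of set 1 were made is not given in the sources used. Log2 of the deposited intensity was taken, and 66 control probe sets were left out, so 12422 probe sets were tested with no filter on low values. limma 3.58.1 (R 4.3.3) fitted each set separately with lmFit and eBayes, two-sided, with Benjamini-Hochberg adjustment over all 12422 and a threshold of 0.05. Quantile normalization preceded fits that joined sets. The procedure was tested on simulated data.

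A gene with several probe sets was represented by the one with the highest mean. Pathway genes are named where they passed the threshold, and the 3 genes most like each member by Pearson r. The members and lists were chosen with earlier results of these data known. Control probe sets of the node arrays were stored in another name order (r = 0.254 with set 1 as stored, 0.952 reordered) and reordered for the actin ratio.

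In set 2, deviations from the group means had r = 0.59, 0.28 and 0.24 between same-numbered anti-ICOS Treg and Teff replicates. The labels give these only a shared number, and replicates 2 and 3 came from different runs of array numbers in the 2 sorts. The main fit therefore had no replicate block, and such a block was tried as an alternative. Alternatives were normalization, log offset, dim filter, variance prior, runs of array numbers, actin ratio, replicate block and leaving out arrays.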

Additional observations from a re-analysis of the deposited data

Results flagged for a closer look

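Prf1 in set 1 IgG Teff replicate 5 was 5.39, apart from the other Teff replicates at 5.12 to 5.19, a gap beyond the range test for a single far value. Chance marks about 1 in 20 such groups, and 12 groups were examined.

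The Gzmk difference between Treg and Teff cells was larger in the pancreas than in the nodes by 0.90 (SE 0.13, limma adjusted p = 0.00186). In the nodes Gzmk lay between 3.07 and 3.73, at the 15.3 to 30.1 percentile of each array's probe sets.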

How the results depend on the processing

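No member that passed the test changed direction under any alternative run, and 70 differences below the threshold changed sign. With the actin ratio as a covariate, 3 members in place of 5 passed in set 1 and 0 in place of 3 in peripheral nodes. Peripheral nodes gave 1 member with only the compared arrays in the fit and 1 to 4 when 1 array was left out. Leaving out anti-ICOS Treg replicate 3 and Teff replicate 1 gave 2 members in place of 0 between these sorts. That fit was chosen after the values were seen, and the arrays left out were ones in which the called members were low or high. Leaving out 1 array gave 2 to 3 members in mesenteric nodes, 5 in every fit of set 1 and 1 in every fit of pancreas against nodes. The causes were not tested.

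The node replicates share only a number (r = 0.02 to 0.32 between sorts of a site). With the replicate block, mesenteric nodes gave 1 member in place of 2, since Ctsw reached limma adjusted p = 0.0506 at 0.79. In the other comparisons so fitted, that of the set 2 sorts included, the block changed no member's call.

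Counts of probe sets past the threshold moved by over 1.5 times in several fits. Set 1 gave 831, 86 with actin and 450 to 1000 without 1 array. Mesenteric nodes gave 1514, 832 with the replicate block and 743 to 1878 without 1 array. Peripheral nodes gave 955, 513 with the compared arrays, 267 with actin and 531 to 1462 without 1 array. Pancreas against nodes gave 258, 56 with actin and 160 to 445 without 1 array. Set 2 Treg against Teff gave 0, 15 with array runs as a block and 0 to 12 without 1 array; anti-ICOS against IgG Treg gave 0, 3 and 0 to 35. Values as deposited moved the median of all probe sets by -0.26 in anti-ICOS against IgG Teff and gave 4390 calls, 4387 of them lower and 0 members. Mesenteric against peripheral CD25+ cells gave 9, 3 with only the compared arrays or with the log offset, and 2 to 21 without 1 array. A second probe set of a member could not be tried, since each had 1, and the dim filter removed Gzmk from the node fits.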
